A study of Mus musculus with 3 samples.

Results

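Fragments of spliceosomal small nuclear RNAs (snRNAs) were counted in small RNA libraries of HL-1, a contracting line of mouse cardiomyocytes. A fragment is an insert of 18 to 25 nt, the part of a read before the 3' adapter, that matches an annotated mouse snRNA gene exactly and in sense. In both libraries together 1668 distinct inserts of 1738385 were such fragments, 1130 of them in the library labelled siSrf1 and 1143 in the library labelled siSrf2. The annotation (GENCODE vM1 on the mouse genome NCBIM37) holds 1423 snRNA genes, of which 936 are named U6, 206 U1, 116 U7, 51 U2, 43 U4, 28 U6atac, 10 U5, 6 U12, 5 U11 and 1 U4atac, and 21 carry only a clone name.

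The cells were transfected with siRNA (9 µl of a 20 µM stock, mixed with a lipid carrier) and harvested 48 h later. By their titles both libraries received an siRNA against Srf, the gene of serum response factor, which drives the transcription of muscle genes. The siRNA entries go against the titles: the title siSrf1 goes with the entry Srf si2, the title siSrf2 with the entry siNon, and the title siNon, of a sample not analysed here, with the entry Srf si1. Every library is therefore called by its title, as the library labelled siSrf1 or siSrf2. Each group is 1 library of the same cell line, without a replicate, so no p-value was computed. Srf mRNA is not measured by this assay. Of the cardiomyocyte markers, the mature sequence of miR-499-5p was read 50467 and 44062 times and that of miR-208a-3p 10 and 7 times in the libraries labelled siSrf1 and siSrf2. The markers miR-1a-3p and miR-133a-3p were planned too but were not counted.

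The snRNAs are the RNA cores of the spliceosome, the machine that removes introns from pre-mRNA. U1 pairs with the 5' splice site and U2 with the branch point, after which U4, U5 and U6 join and U6 takes the place of U1; U11, U12, U4atac and U6atac do the same work for the rare minor introns, and U7 serves the end processing of histone mRNA. U6 and U6atac are made by RNA polymerase III and bind Lsm proteins, whereas the others are bound at a short uridine-rich stretch, the Sm site, by a ring of proteins.

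The fragments that set the libraries apart lay over the Sm site of U2. The 3 most frequent U2 inserts are shown for that reason, with the Sm site in capitals. They match 7 annotated U2 genes and no place outside snRNA genes, and their places in the exon of the U2 copy ENSMUSG00000065820.1, on the plus strand, are chr11:101466259-101466278, chr11:101466260-101466278 and chr11:101466259-101466279 (NCBIM37).

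U2 insert 1: tggATTTTTGgaagtaggag

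U2 insert 2: ggATTTTTGgaagtaggag

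U2 insert 3: tggATTTTTGgaagtaggagt

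A further U2 variant and the main U12 insert hold the same letters and are shown to compare the bases around the Sm site. The U2 variant was the most frequent insert over the Sm site that does not match that copy (chr1:72283612-72283634, plus strand, matching 4 U2 genes). The U12 insert lies in a U12 gene on the plus strand at chr15:82980142-82980161.

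U2 insert of another gene variant: aaatggATTTTTGgaactaggag

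U12 insert 1: agaagaATTTTTGagcgggt

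Of the other types, 3 U1 inserts were also called and are given below by position. The most frequent printed U1 insert (chr11:87236480-87236498, plus strand), U4 insert (chr5:115940366-115940383, plus strand), U6 insert (chr1:54306005-54306023, minus strand) and U11 insert (chr4:131825995-131826013, minus strand) are shown as examples. The capitals in U6 mark the letters that pair with the 5' splice site.

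U1 insert 2: aactcgactgcataatttg

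U4 insert 1: tagtcggcattggcaatt

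U6 insert 1: attggaacgatACAGAGAa

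U11 insert 1: cgttggtcccggcgccctt

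Before the results, the depth and a limit of the U1 counts are given. The libraries labelled siSrf1 and siSrf2 held 14911499 and 14518157 reads, and 7748874 and 7013026 inserts of 18 to 25 nt, to which all counts were scaled. Intervals are 95% and cover counting error only, since the reads carry no molecular identifiers and may be copies of 1 molecule. Of the U1 fragments, 841 and 629 reads carried the substitution C107T, with positions counted from 1 at the 5' end of the U1 reference copy (the copy of a type that matched the most reads). They matched 1 U1 gene on chromosome 3 almost alone (818 and 611 reads matched no other). With inserts of 1 mismatch and no exact place in the genome added, 94.0% and 90.5% of the reads over position 107 carried that T. Of the T-carrying reads that also reached position 126, 6 and 9 carried the T of that gene and 269 and 234 carried A, which matched no place in the genome exactly. The origin of the T-carrying U1 reads was not determined, and their sequences are not printed. The U1 count and fold, and the total, are given with and without them. The positions and lengths of U1 fragments are given only with them. U1 reads that do not cover position 107 cannot be sorted by this base, so the values without T-carrying reads may still hold reads of the same origin.

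In all, 3910 reads in the library labelled siSrf1 and 4824 in the library labelled siSrf2 were snRNA fragments, 0.0505% (exact Clopper-Pearson interval 0.0489 to 0.0521) and 0.0688% (0.0669 to 0.0708) of inserts. That is 505 and 688 reads per 1000000 inserts (RPM), a 1.36-fold higher level in the library labelled siSrf2 (interval 1.31 to 1.42). Called below means at least 2-fold apart with the whole interval on 1 side of no difference, and the total was not called. U2 accounted for the difference in the total: the types other than U2 together had 3233 and 2841 reads, a fold of 0.971 (0.923 to 1.02).

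U2 fragments numbered 677 reads in the library labelled siSrf1 and 1983 in the library labelled siSrf2. Their level was 87.4 and 283 RPM, a 3.23-fold difference (2.96 to 3.54), and U2 was called. With inserts of up to 1 mismatch the fold was 2.06, still called. Its share of snRNA fragment reads was 17.3% (16.1 to 18.5) and 41.1% (39.7 to 42.5).

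U1 fragments numbered 2587 and 2182 reads. They outnumbered U2 in both libraries as counted, but in the library labelled siSrf2 not without the T-carrying reads (1553 U1 against 1983 U2 reads), nor at 20 to 24 nt, without inserts that match outside snRNA genes, or on the reference copies alone. They were 66.2% (64.7 to 67.6) and 45.2% (43.8 to 46.6) of the snRNA reads, while their level was 334 and 311 RPM, a fold of 0.932 (0.880 to 0.987). Without the T-carrying reads 1746 and 1553 U1 reads were left, a fold of 0.983 (0.917 to 1.05), and the total without them was 1.51-fold higher in the library labelled siSrf2 (3069 and 4195 reads). The lower share of U1 in the library labelled siSrf2 thus stood beside more U2 reads and a similar U1 level.

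U4, which holds U6 inactive until it is unwound, had 230 and 234 reads, a fold of 1.12 (0.933 to 1.35). U5, which holds the exons together, had 41 and 45 reads, a fold of 1.21 (0.777 to 1.90). U6, which forms part of the catalytic centre, had 274 and 247 reads, a fold of 0.996 (0.835 to 1.19). Of these 3 types none was called, and their intervals all include no difference.

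Among the minor types U11, which pairs with the 5' splice site of minor introns, had 58 and 61 reads, a fold of 1.16 (0.798 to 1.69). U12, which pairs with the branch point of minor introns as U2 does with that of major ones, had 29 and 61 reads, a fold of 2.30 (1.47 to 3.75), and was called. With TMM factors over miRNA hairpins, which multiply every fold by 0.748, U12 stood at 1.72 and was not called, and U2 at 2.42 was. U6atac had 8 and 5 reads, U7 had 3 and 5, and U4atac had 3 and 0, where a count of 0 allows up to 3 reads; these are too few for a ratio. A single read, in the library labelled siSrf2, matched only genes with a clone name.

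**Figure D1:**
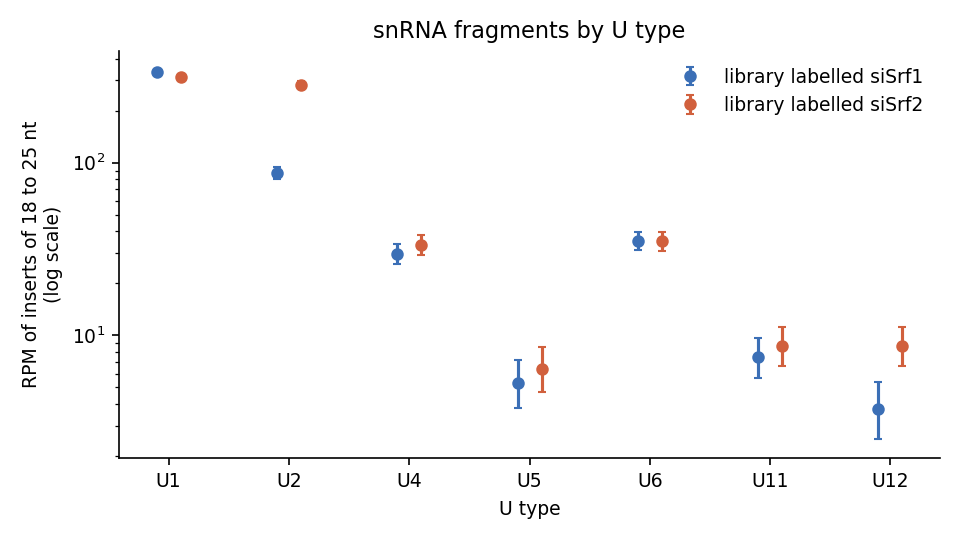
Level in RPM of inserts of 18 to 25 nt (log scale) of the 7 U types with at least 20 reads, in the libraries labelled siSrf1 (blue) and siSrf2 (orange). Bars are exact Poisson intervals of counting error. The points of U2 (87.4 and 283) and of U12 lie apart, while those of U4, U5, U6 and U11 lie within each other's intervals.

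Among the segments examined, the difference in U2 reads as counted lay at 1 place of the 191 nt gene. Reads that covered the whole Sm site (positions 99 to 105) numbered 154 in the library labelled siSrf1 and 1494 in the library labelled siSrf2, a 10.7-fold difference (9.08 to 12.7). All other U2 reads numbered 523 and 489, a fold of 1.03 (0.911 to 1.17). Reads over the Sm site were thus 22.7% and 75.3% of U2 reads. Whether either group holds reads of another origin, as may hold for the T116A reads below, was not tested. Over the segment that pairs with the branch point (positions 33 to 38) there were 13 and 12 reads.

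U2 insert 1 had 23 reads in the library labelled siSrf1 and 418 in the library labelled siSrf2, a 19.7-fold difference. U2 insert 2, which starts 1 base later, was read 6 and 309 times, a 52.6-fold difference. U2 insert 3, which ends 1 base later, was read 12 and 254 times, a 22.5-fold difference. All 3 had at most 23 reads in the library labelled siSrf1 and led the U2 reads of the library labelled siSrf2. The U2 coverage peaked near their start in both libraries. The peak was at position 96 in the library labelled siSrf1 (196 reads) and at 97 in the library labelled siSrf2 (1536 reads).

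The ends of these fragments were sharp in the library labelled siSrf2. Of the 1494 reads over the Sm site, 765 (51.2%) started at position 96 and 469 (31.4%) at position 97, and 825 (55.2%) ended at position 115 and 469 (31.4%) at position 116. In the library labelled siSrf1 the same starts held 46 (29.9%) and 13 (8.44%) of 154 reads and the same ends 61 (39.6%) and 34 (22.1%), while 37 started at position 95 and 24 at position 93. The most frequent length was 20 nt in the library labelled siSrf2 (582 reads, 39.0%) and 21 nt in the library labelled siSrf1 (42 reads, 27.3%). The fragments over the Sm site of the library labelled siSrf2 were therefore more of them and also more uniform in both ends.

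The U2 genes differ next to the Sm site. Reads over the Sm site that match the reference copy numbered 128 and 1413, a 12.2-fold difference (10.2 to 14.7), and those that differ from it 26 and 81, a 3.40-fold difference (2.19 to 5.58). The U2 insert of another gene variant shown above was read 2 and 11 times. Both groups of reads were higher in the library labelled siSrf2, and the intervals of their folds do not overlap.

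A separate set of U2 reads carried a base that gave no exact match to an annotated mouse U2 gene. With inserts of 1 mismatch and no exact place in the genome added, 154 and 136 reads carried T116A, a fold of 0.976, while 50 and 566 reads carried the T of the reference copy there, a 12.4-fold difference. The latter include the reads over the Sm site that end at this position. Among the reads over this position, those of the annotated mouse sequence differed between the libraries and those with the other base had nearly the same level in both. The reads with T116A were 74.8% and 19.3% of the reads over position 116 in the libraries labelled siSrf1 and siSrf2. Their origin was not determined. U2 reads that do not cover position 116 cannot be sorted by this base. The U2 counts, over the Sm site and elsewhere, may therefore still hold reads of the same origin.

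**Figure D2:**
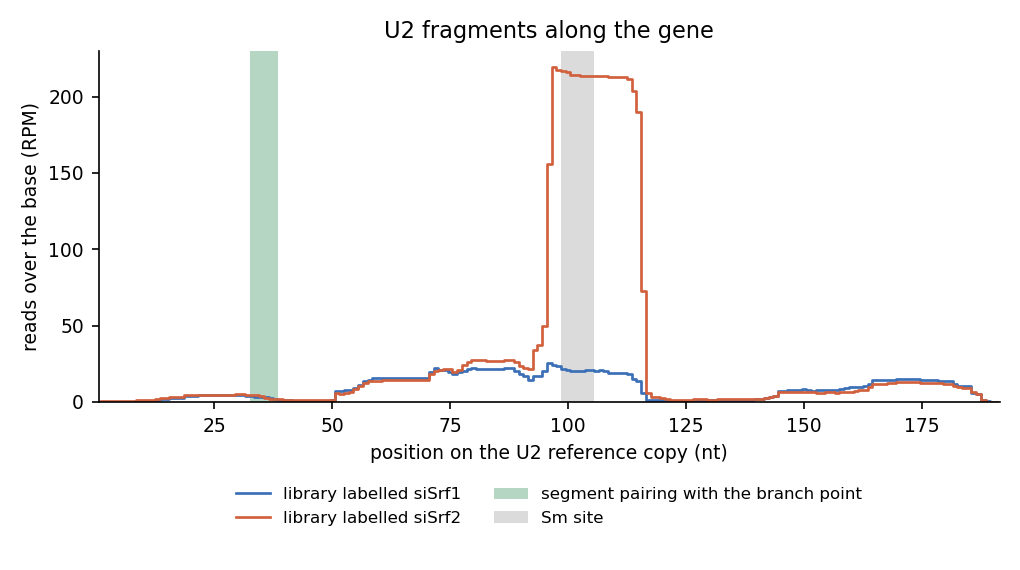
Reads over each base of the U2 reference copy, in RPM of inserts of 18 to 25 nt, in the libraries labelled siSrf1 (blue) and siSrf2 (orange); the grey band is the Sm site (positions 99 to 105) and the green band the segment that pairs with the branch point. The lines run together along the gene except over the Sm site, where the orange line forms a plateau that starts at position 96 or 97 and ends at 115 or 116.

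The Sm site of U12 showed the same direction with fewer reads. Over it (positions 75 to 81) there were 18 reads in the library labelled siSrf1 and 48 in the library labelled siSrf2, a 2.90-fold difference (1.68 to 5.38), and elsewhere on U12 there were 11 and 13. U12 insert 1 was read 8 and 24 times, and 14 and 37 of the U12 reads started at its first base, position 69. As in U2, the main U12 start lay a few bases before the Sm site, so that the Sm letters stood inside the fragment.

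U1 and U4 had few fragments centred on the Sm site. In U1 the site (positions 126 to 132, spelled ATTTGTG) was covered by 207 and 261 reads, a fold of 1.39 (1.16 to 1.68) that was not called, against 0.892 for the other U1 reads. A split made after the values were seen took the U1 reads with 3 or more bases on both sides of the site. These numbered 22 and 41, a fold of 2.04 (1.20 to 3.63), against 1.31 (1.08 to 1.61) for those with fewer on a side. In U2 the same split went the other way, at 8.56 (7.15 to 10.4) against 21.8 (14.8 to 35.0). For U4 and U12 it left too few reads on a side to compare. In U4 the site (positions 119 to 125) was covered by 13 and 17 reads, a fold of 1.43 (0.661 to 3.23). The letters ATTTTTG, searched in sense in the reference copy of each type, were not found in U5 and U11; the letters ATTTTTT, searched afterwards, were found in both at positions 88 to 94, with 0 and 2 reads over them in U5 and 2 and 1 in U11.

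**Figure D3:**
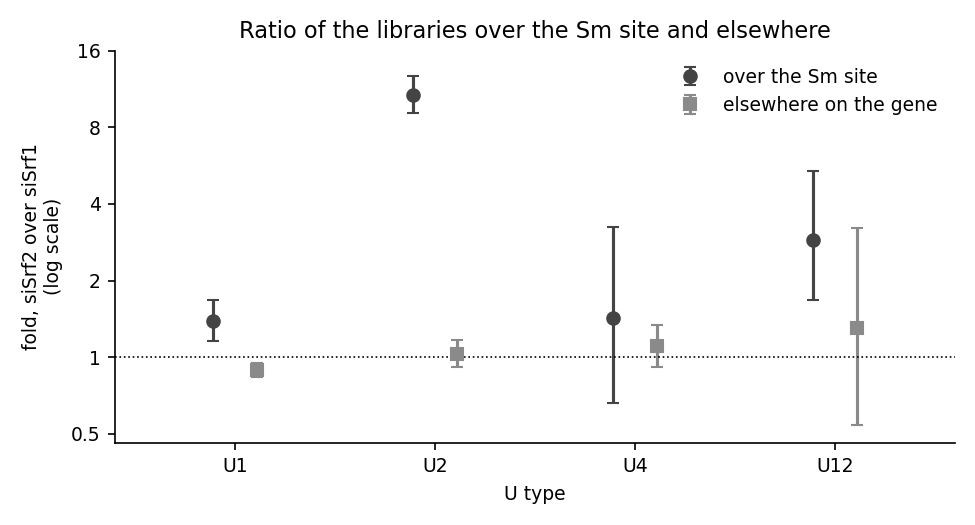
Fold of the library labelled siSrf2 over the library labelled siSrf1 (log scale), for reads that cover the Sm site (circles) and all other reads (squares) of U1, U2, U4 and U12; bars are exact binomial intervals of counting error. For U2 the circle stands at 10.7 and the square at 1.03, and for U12 the circle stands at 2.90 with a square whose interval includes no difference.

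Other classes of small RNA fragments moved as well. Fragments of snoRNA genes, which guide the modification of ribosomal RNA, were 2.26-fold higher in the library labelled siSrf2 (5236 and 10693 reads), and those of mitochondrial tRNA genes 4.30-fold (542 and 2111 reads). Fragments of rRNA genes (27517 and 23075 reads, a fold of 0.927) and of miRNA hairpins (62.2% and 58.6% of inserts, a fold of 0.943) were lower by less than 2-fold. The part of whatever moved these classes in the U2 result was not tested. As a whole class U2, at 3.23-fold, lay between the snoRNA and the mitochondrial tRNA fragments.

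Single inserts were compared with all inserts of the libraries. Of 79 snRNA inserts with at least 20 reads over both libraries, 13 (16.5%) were called higher in the library labelled siSrf2 and 1 was called lower there. Among all 18847 inserts with that many reads, 13.5% were called higher in the library labelled siSrf2 and 6.17% were called lower, so the count over all snRNA types is near this background. By type the calls were uneven: 10 of 14 U2 inserts were called higher in the library labelled siSrf2, all 10 over the Sm site, against 2 of 63 U1 inserts. These 10 overlap between positions 93 and 116 and are part of the reads over the Sm site counted above. Most of them reached 20 reads only through the library labelled siSrf2. Their number is therefore not a separate result. U12 insert 1 was also called higher in the library labelled siSrf2. The U1 inserts called there lie at positions 125 to 143, over the Sm site (1 and 20 reads, a 15.1-fold difference), and 110 to 127 (6 and 16 reads). The U1 insert called higher in the library labelled siSrf1 lies at positions 114 to 132 (21 and 6 reads). It also covers the Sm site, so the called U1 inserts over that site went both ways.

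Along the genes, each type had its own pattern, and whether the libraries shared it was not tested. U1 fragments came mostly from the 3' part: with the gene cut in 3 equal parts, 74.9% and 75.7% had their middle in the last part of its 164 nt, 1683 and 1346 reads covered position 116 alone, and a smaller group lay near the middle of the gene. U1 insert 2, from this region, was read 58 and 45 times. The segment of U1 that pairs with the 5' splice site (positions 3 to 9) was covered by 0 and 1 reads, although U1 had the most reads of all types as counted.

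In U4, 87.0% and 78.2% of reads lay in the last of 3 equal parts of the 141 nt gene, with the peak at position 104 or 109, just before the Sm site. U4 insert 1 was read 6 and 11 times and no U4 insert reached 20 reads, so these fragments had many different ends. In U6, by contrast, the coverage peaked at position 43 or 42 (162 and 140 reads). These positions lie within the letters ACAGAGA of the working centre (positions 41 to 47). The peak was flat, and the coverage before these letters was nearly as high, with 155 and 137 reads over position 32. All of these letters were covered by 98 and 94 reads (35.8% and 38.1%), a fold of 1.06 (0.790 to 1.42). U6 insert 1 was read 9 and 12 times. U6 reads could not be assigned to a gene, as U6 insert 1 matches 190 annotated copies and 2 places outside snRNA genes.

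U5 fragments came from the first part (51.2% and 31.1%) and the middle part (46.3% and 64.4%), and the loop that holds the exons (positions 38 to 44) was covered by 1 and 0 reads. Its most frequent insert was read 3 times in all, so it is not printed. U11 fragments lay mostly in the last part (63.8% and 50.8%), and 19 and 20 of its 58 and 61 reads ended at the last base of the 134 nt gene. U11 insert 1, which ends there, was read 6 and 7 times. Few fragments of any type started at the first base of the gene: 0 and 1 in U1, 1 and 5 in U2, 0 and 1 in U4, 3 and 4 in U5, 0 and 0 in U6 and U12, and 0 and 2 in U11.

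**Figure D4:**
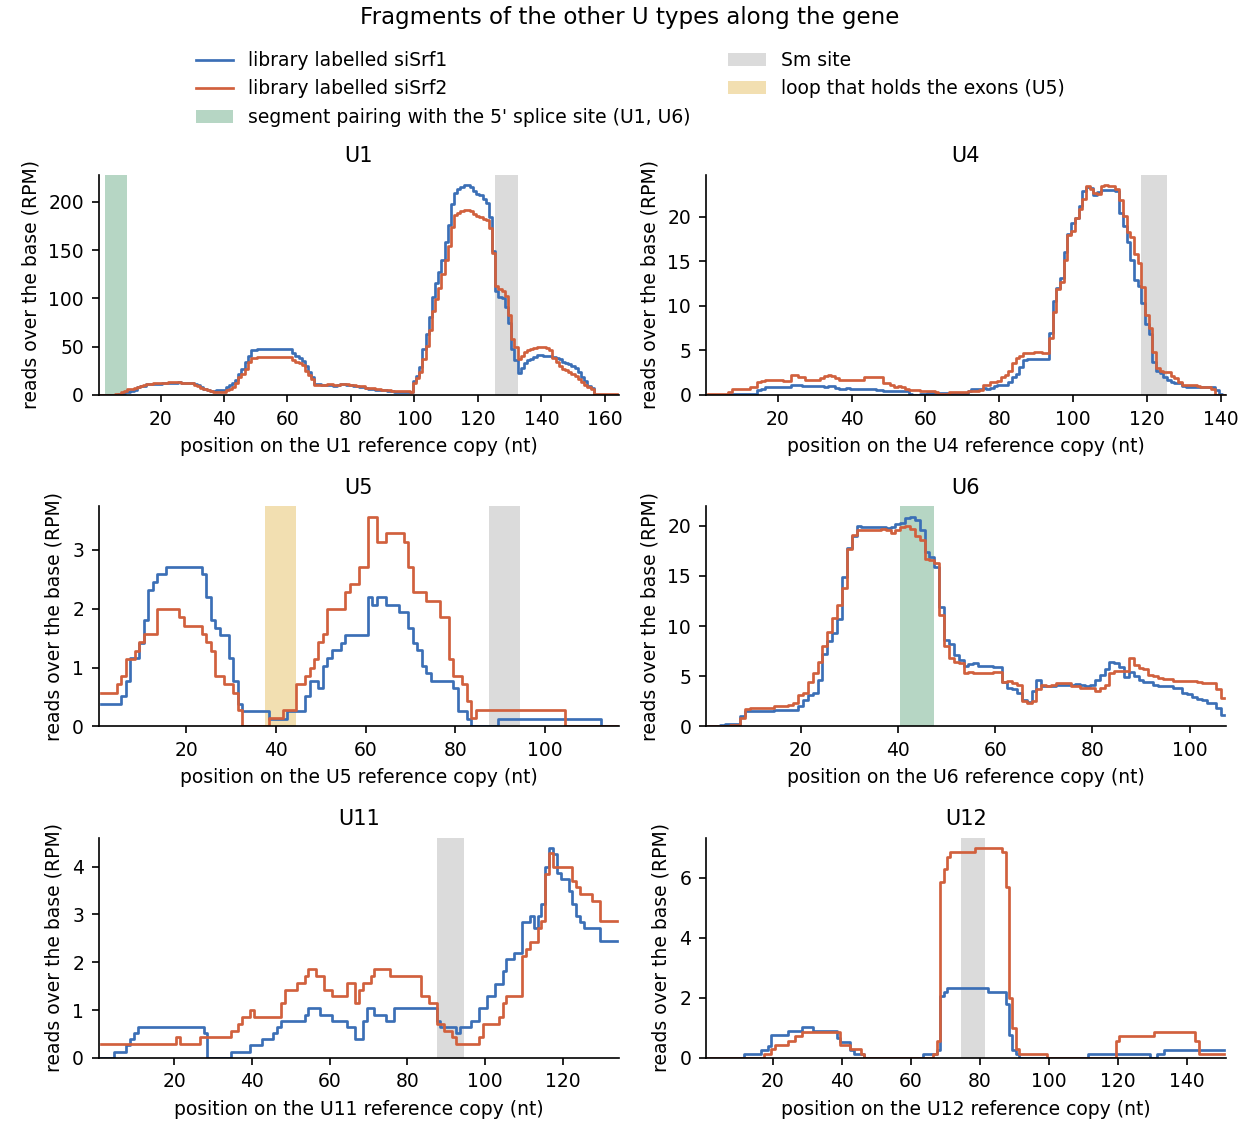
Reads over each base of the reference copies of U1, U4, U5, U6, U11 and U12, in RPM of inserts of 18 to 25 nt, in the libraries labelled siSrf1 (blue) and siSrf2 (orange), each panel with its own axis. Grey bands are Sm sites, green bands the segments of U1 and U6 that pair with the 5' splice site, and the yellow band the exon loop of U5. The libraries lie apart over the Sm site of U12 (18 and 48 reads); in U1 the blue line is above the orange at the peak near position 116, and the orange above the blue over the Sm site (207 and 261 reads) and just after it.

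At the 3' end of U2 a base that is not in the reference copy was seen. Mature U2 is known to receive an A at its 3' end that is not in the gene. Among reads with inserts of 1 mismatch added, 248 and 195 matched U2 up to position 187 and ended in an additional A, and 369 and 294 of the reads over position 188 carried C188A (95.8% and 95.1%). These reads did not differ between the libraries beyond 2-fold (0.881). They are not among the exact fragments counted above, where 29 and 25 U2 reads ended at position 187. Whether this A was added to U2 or belongs to another sequence, as may hold for T116A, was not tested.

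The fragments were short, and the range of 18 to 25 nt holds only part of them. The median length within the range was 19 to 21 nt in every type and library. For U1, U4 and U5 the most frequent length was 18 nt in both libraries, the shortest counted, and a further 2368 and 2064 sense reads of all types had 15 to 17 nt. Only 24 and 39 had 26 to 32 nt, and no read without adapter matched over its whole 36 nt. Inserts of all origins also fell, from 66596 and 113599 reads at 25 nt to 1108 and 795 at 30 nt, with 26597 and 25060 at 32 nt. The lack of longer fragments is therefore not particular to snRNAs, and whether longer ones were lost before sequencing was not tested. The length of 22 nt, at which most miRNAs are found, held 12.8% and 11.9% of U1 reads and 14.2% and 6.51% of U2 reads. U2 of the library labelled siSrf2 stood apart with 75.8% of its reads at 19 to 21 nt, against 48.9% in the library labelled siSrf1. The U12 shares were 78.7% and 75.9%.

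**Figure D5:**
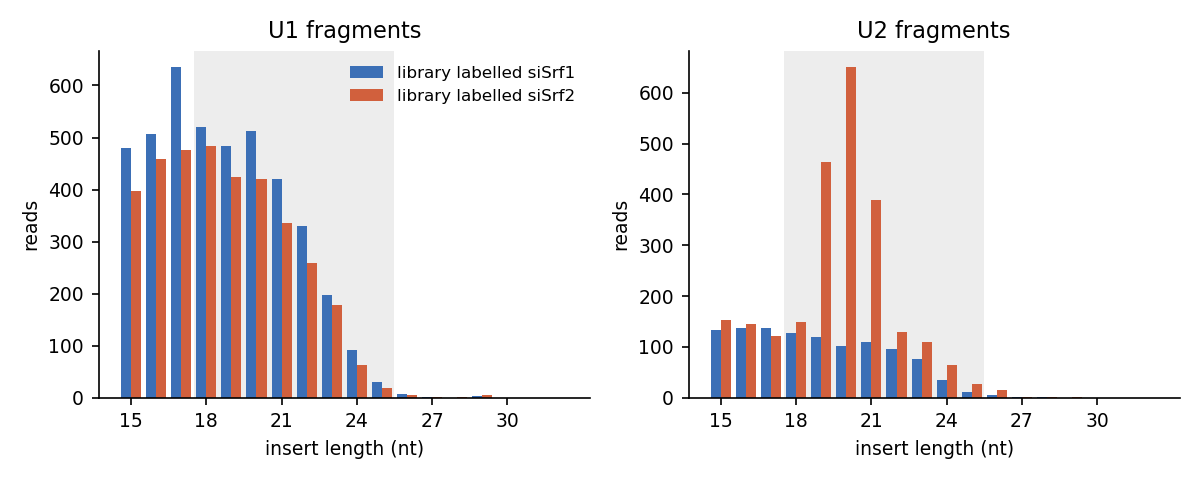
Reads by insert length for U1 and U2 in the libraries labelled siSrf1 (blue) and siSrf2 (orange); the shaded range of 18 to 25 nt was counted as fragments. U1 falls off from the short end in both libraries, while U2 of the library labelled siSrf2 has a peak of 650 reads at 20 nt.

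Matches to the opposite strand of the same genes numbered 3 reads in the library labelled siSrf1 and 18 in the library labelled siSrf2. In sense there were 3910 and 4824. The opposite strand does not measure sense reads from other places or of another origin. No insert matched genes of more than 1 U type. Of the U1 reads, 1471 and 1268 match no place outside annotated snRNA genes, and 1116 and 914 match 1 to 5 such places. Of the U2 reads, 457 and 1772 match none. The share without such a match was lowest in U6, with 35 and 37 of 274 and 247 reads. In U5 it was 19 and 27 of 41 and 45 reads.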

How the data were processed

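For each library the authors deposited, without normalization, the count of reads for every distinct 36 nt sequence, adapter included. Per the labels an Illumina kit for small RNA and a Genome Analyzer were used; whether reads were filtered, and any aligner or build, is not given in the sources used here. The adapter was found by its first 8 nt, or 4 nt or more at the read end. Inserts were matched to the snRNA genes of GENCODE vM1 (NCBIM37) in Python 3.11.15, and to the whole genome for other places. Inserts absent from the reference copy were placed by alignment (biopython 1.88). Log2 ratios used a pseudocount of 0.5 reads, with intervals conditional on the sum of both counts (scipy 1.17.1). U types, and inserts with at least 20 reads, were compared. The sequences considered were the most frequent insert of each type, and the next 2 of types with at least 200 reads, leaving out U1 inserts with T at position 107. The members and lists were chosen with earlier results of these data known. The steps were tested on simulated data. TMM factors came from edgeR 4.0.16 over 202 miRNA hairpins with at least 50 reads.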

Additional observations from a re-analysis of the deposited data

Results flagged for a closer look

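Signals outside the counted fragments were seen above the 3 reads that a count of 0 allows. In antisense this held for the library labelled siSrf2, with 18 reads of 18 to 25 nt (Poisson interval 10.7 to 28.4), and not for the library labelled siSrf1, with 3 reads (0.619 to 8.77). Sense inserts of 15 to 17 nt numbered 2368 and 2064 reads in the libraries labelled siSrf1 and siSrf2. Sense inserts of 26 to 32 nt numbered 24 and 39. Inserts with 1 mismatch to an snRNA gene and no exact place in the genome numbered 1827 and 1582, and they include the reads with U2 C188A, U2 T116A and U1 C157T (113 and 89 reads). They also include U11 C31T, with 12 and 10 reads, 85.7% and 76.9% of the reads over that position. U11 reads that do not cover position 31 cannot be sorted by this base.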

How the results depend on the processing

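The 10.7-fold difference over the U2 Sm site and the 3.23-fold difference of U2 were called under the other scalings, lengths, filters and searches tried, and with up to 1 mismatch they were 7.46 and 2.06. U2 stood at 1.03 without the reads over the Sm site, a setting added after the data were seen, as was leaving out the U1 reads with T at position 107. U12 was not called with TMM factors (1.72-fold), which multiply every fold by 0.748. TMM also moved the total to 1.02, all types but U2 to 0.726, U1 to 0.697, U4 to 0.841, U6 to 0.745 and U2 outside the Sm site to 0.773.

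The total moved to 1.45 scaled to miRNA hairpin reads, 1.21 with 15 to 32 nt, 1.23 with up to 1 mismatch, 1.66 without inserts that match outside snRNA genes, 1.51 on the reference copies alone, 1.51 without the T-carrying U1 reads and 0.980 without U2 reads over the Sm site. All types but U2 stood at 1.03 scaled to miRNA hairpin reads, 1.02 on the reference copies and 1.02 without the T-carrying U1 reads, and U1 at 0.988 scaled to miRNA hairpin reads. The inserts called higher in the library labelled siSrf2 numbered 22 at a minimum of 10 reads, 4 at 50 and 3 without those over the U2 Sm site. Those called lower there numbered 2 scaled to inserts of 15 nt or longer, 2 with 12 nt of adapter, 2 at 1.5-fold, 10 with TMM factors and 0 at a minimum of 50 reads.

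The share of U1 in snRNA reads of the libraries labelled siSrf1 and siSrf2 was 63.8% and 36.7% without inserts that match outside snRNA genes, 73.0% and 47.4% without sequences read once, and 58.8% and 38.1% on the reference copies. That of U2 was 19.8% and 51.2%, 15.6% and 43.6%, and 21.1% and 46.8% under the same settings, and 25.8% and 43.1% with up to 1 mismatch, where U1 held 60.2% in the library labelled siSrf1. In the library labelled siSrf2, U1 and U2 held 42.1% and 45.0% at 20 to 24 nt, and 50.9% and 35.0% at 15 to 32 nt. Reads over the Sm site were 18.2% and 64.8% of U2 at 15 to 32 nt, and 17.1% and 62.1% with up to 1 mismatch. The last of 3 equal parts of U1 held 72.5% in the library labelled siSrf1 at 15 to 32 nt, and 77.1% and 78.4% with up to 1 mismatch. At 15 to 32 nt the median length was 18 nt in U1 and U4, and 18 and 17 nt in U5. The cause of these changes was not tested. The types with under 100 reads (U5, U11, U12) are limited by counting error. No paired analysis was possible because there is 1 library for each title, and no replicate could be left out.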
